A study of Arabidopsis thaliana with 12 samples.

Results

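HYH (AT3G17609) and AT3G44450, the gene known as BIC2, are light signalling genes of Arabidopsis thaliana whose transcripts were followed here on 12 Affymetrix ATH1 arrays. The members were the probe sets that the array annotation assigns to each of these genes alone, which gave 1 probe set for HYH and 1 for AT3G44450, 2 of 22746 non-control probe sets on the array. No probe set named either gene together with another. RefSeq lists 4 transcripts for HYH and 1 for AT3G44450, and with a single probe set the transcript forms of HYH cannot be told apart. Both probe sets passed the filter on dim signals, which kept 13647 probe sets.

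The arrays carried RNA from the aerial rosettes of wild-type seedlings (ecotype Columbia, 15 days old) that had grown in cycles of 12 h white light and 12 h dark and were then kept in the dark. The 4 groups had 3 arrays each. Night pulse seedlings received 1 h of white light in the middle of the night, and night control seedlings were collected without a pulse. Day pulse seedlings received the same 1 h pulse midway through their subjective day, and day control seedlings were collected without one. All seedlings, pulsed or not, were in free-running darkness. The hours of darkness before collection may differ between the night and subjective-day groups. Effects of the time of day and of the time spent in darkness therefore cannot be told apart. The labels give the night groups as CT 6 and the subjective-day groups as CT 18, which runs against the usual count from subjective dawn, so the groups follow the sample titles. The labels do not say whether the arrays of a group came from separate plants, so p-values here reflect variation from array to array, which may be technical.

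HYH encodes a bZIP transcription factor and is the closest relative of HY5, the main promoter of light-dependent development. In darkness the COP1/SPA ubiquitin ligase marks HY5 and HYH for destruction, and photoreceptors in the light inhibit that ligase. BIC2 and its relative BIC1 encode small proteins that bind cryptochromes, the blue-light receptors, and keep them from forming the active oligomers. Light is known to induce the BIC genes, which makes them part of a negative feedback on the cryptochromes.

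Signals are given as normalized signals, meaning deposited intensities raised by 2, put on a log2 scale, quantile normalized over the 12 arrays and turned back to a linear scale. They are in arbitrary units, and levels of different probe sets are not comparable with each other. Log2 differences are limma estimates ± SE from 1 fit of all 4 groups, with n = 3 arrays per group, and a call means a Benjamini-Hochberg adjusted p under 0.05 over all 13647 probe sets. The lowest mean signal that the filter kept was 21.75, and a fold against a group mean below it was computed with that mean set to 21.75 and is written "at least". Because whole rosettes were used, fewer cells expressing a gene and less transcript per cell cannot be told apart.

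Before normalization the array medians ran from 23.6 to 64.05. Of 17 listed genes of green tissue 5 had a named probe set, and these (RCA, LHCB4.1, LHCB4.2, SBPASE and PRK) had signals of 1370 to 8675 on every array. Of 12 listed root genes 2 had one, EXPA7 and EXPA18, which stayed between 0.765 and 16.2, which are values below the lowest signal kept on every array. The summed signal of the 5 green-tissue genes was 27313 to 28182 on day pulse arrays, against 16062 to 23185 on day control arrays, and 23706 to 27021 on night pulse arrays, against 23373 to 26931 on night control arrays. Whether the lower sum in the day controls had a part in the results was not tested. The GAPDH control probes, whose 3' to 5' ratio reports on RNA integrity, gave ratios of 9.29 (day pulse replicate 1) and 8.75 (day control replicate 2), whereas the remaining arrays ranged from 2.16 to 5.16. The same ratio for actin ran from 13.5 to 37.1 over the 12 arrays and did not set these arrays apart, at 16.3 and 27.6.

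**Figure D1:**
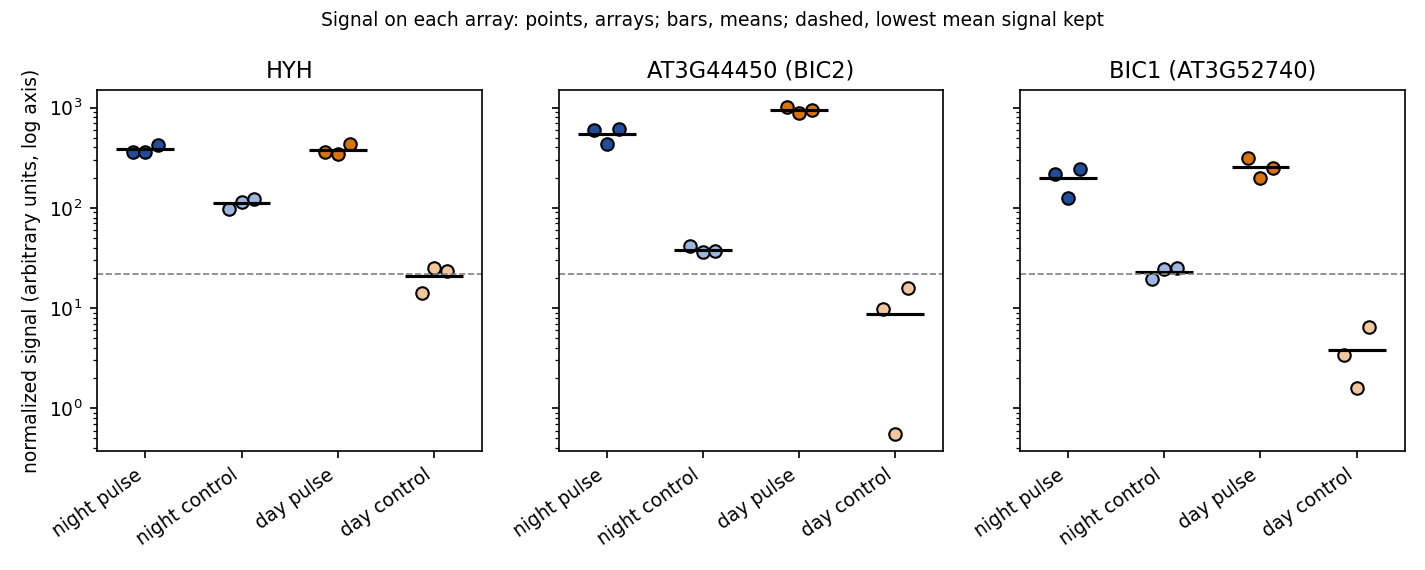
Normalized signal (arbitrary units, log axis) of HYH, AT3G44450 and BIC1 on each of the 12 arrays, by group. Points are arrays, bars are means of 3 arrays and the dashed line is the lowest mean signal kept, 21.75. In all 3 genes every pulsed array lies above every control array, and the night controls lie above the day controls. The control arrays of BIC1 lie near or under the dashed line. The 3 day control arrays of AT3G44450 are at 0.549, 9.83 and 15.96.

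The first question was what the night pulse did to each gene. HYH had normalized signals of 364.2, 364.2 and 421.9 on the night pulse arrays, against 98.4, 114.7 and 123.8 on the night control arrays. The lowest pulsed array stood 2.94-fold above the highest control array. HYH thus rose 3.42-fold between the means of 383 ± 33.3 (night pulse) and 112 ± 12.9 (night control; SD, n = 3 each), a log2 change of 1.76 ± 0.21 (limma, adjusted p = 9.36e-05). In the deposited intensities, before normalization, the same arrays read 366.0, 530.4 and 556.6 after the pulse and 113.7, 134.6 and 145.4 without it, and these groups did not overlap either. The tied normalized values come from ranks, since HYH held rank 20412 of 22746 probe sets on night pulse replicates 1 and 2 and again on day pulse replicate 1.

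AT3G44450, the cryptochrome inhibitor gene, rose as well. It had 600, 433 and 612 on the night pulse arrays, against 41.5, 36.0 and 36.8 on the night control arrays. The 3 control arrays lay close together, with a coefficient of variation of 7.70%, and the pulsed arrays were all at least 10.45 times as bright as the brightest of them. The means were 549 ± 99.9 after the pulse and 38.1 ± 2.93 without it, a 14.4-fold difference of means and a log2 change of 3.76 ± 0.50 (adjusted p = 0.000242). On the array as a whole AT3G44450 stood near the middle in the night controls, brighter than 48.0% to 50.5% of all probe sets, and was brighter than 91.5% to 94.1% of them after the pulse.

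Among the 13647 probe sets tested, 12.9% were called in either direction after the night pulse and 6.07% were called higher. These were 829 higher and 931 lower calls, against 427 higher and 242 lower without normalization. All 3 night pulse arrays were above all 3 night control arrays for 17.5% of probe sets, and below them for 19.6%. The median log2 change of all was -0.01. Ranked by log2 change from the top, AT3G44450 had rank 23 and HYH rank 229. The 95% intervals of the rise were 1.31 to 2.21 for HYH and 2.68 to 4.85 for AT3G44450 on the log2 scale, and the difference between the genes was not tested.

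The second question was what the same pulse did in the subjective day. HYH had 364.2, 340.8 and 432.5 on the day pulse arrays, against 14.3, 24.9 and 23.2 on the day control arrays. All pulsed arrays were at least 13.7 times as bright as any control array. The means were 379 ± 47.6 after the pulse and 20.8 ± 5.71 without it, a ratio of means of at least 17.4. The fitted log2 change was 4.09 ± 0.21 (adjusted p = 1.43e-08), which is 17.03-fold with a 95% interval of 12.47 to 23.25. The day control mean lay just below the lowest signal kept, and with all dim signals raised to 21.75 the change was 3.91 ± 0.18.

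AT3G44450 had 1016, 891 and 942 on the day pulse arrays, against 9.83, 0.549 and 15.96 on the day control arrays. The pulsed arrays had a coefficient of variation of 6.63%, whereas all 3 control arrays were below the lowest signal kept and had one of 88.4%. The rise was at least 43.65-fold between means of 949 ± 62.9 (day pulse) and 8.78 ± 7.76 (day control). The fitted log2 change of 6.86 ± 0.50 (adjusted p = 2.4e-07) contains the very low value of day control replicate 2, whose deposited intensity was 0.5. Without that array it was 6.02 ± 0.22, and with dim signals raised it was 5.32 ± 0.18. Without both arrays of high GAPDH ratio the changes were 6.02 ± 0.24 for AT3G44450 and 4.29 ± 0.24 for HYH.

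In the subjective day 42.7% of all probe sets were called in either direction and 21.0% were called higher. The 2864 higher and 2969 lower calls became 2203 higher and 4295 lower with arrays centred on their medians. The day pulse arrays were all above the day control arrays for 22.7% of probe sets, and all below them for 25.3%. By log2 change AT3G44450 had rank 4 and HYH rank 95. AT3G44450 was brighter than 96.2% to 96.7% of all probe sets on the day pulse arrays, against 1.37% to 34.2% on the day control arrays, and HYH was brighter than 89.0% to 91.5% after the pulse, against 32.25% to 41.7% without it.

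**Figure D2:**
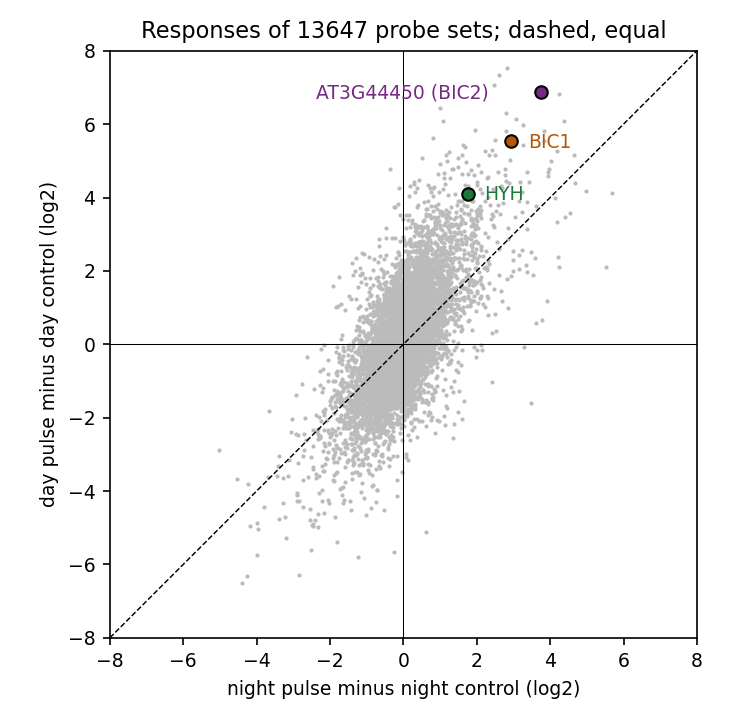
Log2 change after the night pulse (horizontal axis) and after the day pulse (vertical axis) for the 13647 probe sets tested, grey points, with HYH, AT3G44450 and BIC1 marked. The dashed line marks equal changes, and the marked genes lie above it, at 1.76 and 4.09 for HYH, 3.76 and 6.86 for AT3G44450, and 2.94 and 5.53 for BIC1.

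The third question was whether the size of the response differed between the night and subjective-day groups. Both genes rose more in the subjective day. The difference of the log2 changes, night minus day, was -2.33 ± 0.29 for HYH (adjusted p = 0.000277) and -3.10 ± 0.71 for AT3G44450 (adjusted p = 0.0126). For AT3G44450 the size depended on its dim day controls. When day control replicate 2 was left out the difference was -2.28 ± 0.30 (adjusted p = 0.000694), and after dim signals were raised it was -1.56 ± 0.25 (adjusted p = 0.000975). Over all probe sets 12.7% were called for this difference, 5.20% above 0 and 7.47% below 0 as in both genes. That balance turned with the scaling: 709 calls were above 0 and 1019 below it with quantile normalization, and 2037 above and 691 below with arrays centred on their medians, where the median of all differences was 0.31, against 0.03. Relative to the median of all probe sets the differences were then -2.41 for HYH and -2.96 for AT3G44450.

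The levels without a pulse differed between the times. By construction the difference of responses equals the night minus day difference of the pulsed groups minus that of the controls. The control difference is thus a component of the response difference and no separate evidence for it. HYH had 98.4 to 123.8 on the night control arrays, against 14.3 to 24.9 on the day control arrays, and the groups did not overlap. It was at least 5.16-fold higher at night in darkness, with a log2 difference of 2.35 ± 0.21 (adjusted p = 1.48e-06). AT3G44450 had 36.0 to 41.5 on the night control arrays, against 0.549 to 15.96 on the day control arrays. Its mean was at least 1.75-fold higher at night. The fitted difference was 2.30 ± 0.50 (adjusted p = 0.00202). It was 1.48 ± 0.22 when day control replicate 2 was left out and 0.75 ± 0.18 once dim signals were raised. A difference between the controls was common, since 48.4% of all probe sets were called in either direction, 25.7% as higher and 22.6% as lower in the night controls. The 3511 higher and 3091 lower calls became 4566 higher and 1062 lower without normalization, and 2730 higher and 4237 lower with median centring. Without normalization the median of all probe sets was itself 0.54 higher at night. The night control arrays were all above the day control arrays for 31.0% of probe sets and all below them for 29.4%. Without normalization, relative to the median of all, HYH was 2.44 and AT3G44450 2.21 higher.

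The last comparison was of the levels after the pulses. HYH reached 364.2 to 421.9 on the night pulse arrays and 340.8 to 432.5 on the day pulse arrays, ranges that overlap. The log2 difference, night minus day, was 0.02 ± 0.21 (adjusted p = 0.952), with a 95% interval of -0.43 to 0.47, so a night level between 0.743 and 1.38 times the day level is compatible with these arrays. Without normalization the difference was 0.58 ± 0.33 (adjusted p = 0.219), while the median of all probe sets was then 0.45 higher in the night pulse group.

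AT3G44450 had 433 to 612 on the night pulse arrays, against 891 to 1016 on the day pulse arrays, and these ranges do not overlap. In the deposited intensities they do, at 627.0 to 810.0 (night pulse) and 572.5 to 979.3 (day pulse). For 22.4% of all probe sets the night pulse arrays were likewise all below the day pulse arrays, and for 23.7% all above them. Between the pulsed groups 34.9% of probe sets were called, 18.8% as higher and 16.1% as lower after the night pulse (2559 and 2202 calls, against 3326 and 375 without normalization). The mean was 1.73-fold higher after the day pulse, but the log2 difference of -0.80 ± 0.50 was not called (adjusted p = 0.237, 95% interval -1.89 to 0.28). Its SE includes the spread of the day control arrays, which share the fit. Fitted with the pulsed groups alone the difference was -0.80 ± 0.18 and called (adjusted p = 0.0122), as it was without day control replicate 2 (-0.80 ± 0.20, adjusted p = 0.00868). Without normalization it was -0.20 ± 0.49 (adjusted p = 0.814). The order of levels from high to low was thus night and day pulse together, night control and day control for HYH. For AT3G44450 it was day pulse, night pulse, night control and day control, with the first step called under some settings only.

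**Figure D3:**
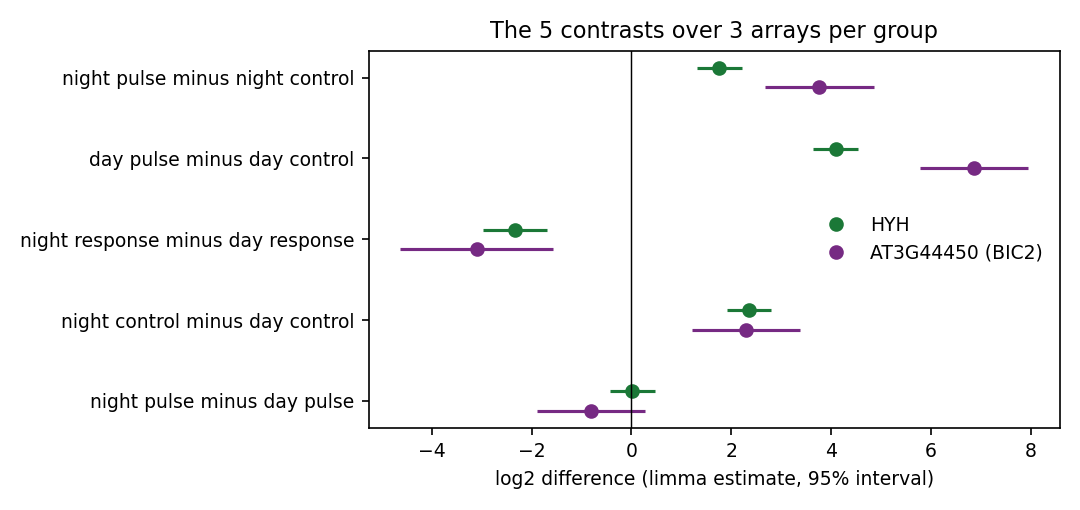
Log2 differences (limma estimate and 95% interval, n = 3 arrays per group) of HYH and AT3G44450 in the 5 contrasts. Both genes have intervals above 0 for each pulse and for night against day controls, below 0 for the difference between responses, and across 0 for night pulse against day pulse.

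Other probe sets shared the course of both genes. Of 13647 probe sets 5.11% were called higher after both pulses, 1.66% also had a called larger rise in the subjective day, and 1.33% also had a higher called level in the night controls. For 0.923% (126 probe sets, HYH and AT3G44450 among them) the pulsed levels were not called different. These conditions are not independent, since the difference of responses contains the control difference. Within groups, both genes were on the same side of their group means on 4 of 12 arrays. Day control replicate 1 held the lowest HYH signal of its group. Day control replicate 2, with the lowest AT3G44450 signal, held the highest normalized HYH signal. In the deposited intensities HYH was tied at 16.3 on day control replicates 2 and 3.

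The wider light signalling pathway could be read only in part. Of 62 listed genes 7 had a probe set naming them alone, and 6 were tested, HYH and AT3G44450 included. The other listed genes, HY5 among them, were not analysed here. FHL, which carries phytochrome A into the nucleus, was too dim to be tested, with group means of 9.96 to 44.6. After the night pulse 3 of the 6 rose, against 6.07% of all probe sets, none fell and 3 were not called, with a median of 0.82 over the 6 and -0.01 over all. After the day pulse 4 rose, against 21.0% of all, none fell and 2 were not called, with a median of 2.63, against -0.04 over all. The 4 include PPK1, whose call was lost under 8 of 24 alternatives. Leaving out HYH and AT3G44450, 1 of 4 rose at night and 2 of 4 in the day, and the medians were -0.12 at night and 0.68 in the day.

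The inhibitor gene BIC1 (AT3G52740), the relative of BIC2, rose after both pulses. It had 218.1, 126.7 and 244.7 on the night pulse arrays, against 19.4, 24.4 and 25.3 on the night control arrays, an 8.53-fold rise in means and 2.94 ± 0.34 in log2 (adjusted p = 6.85e-05). On the day pulse arrays it had 316.9, 197.0 and 252.3, against 3.41, 1.59 and 6.45 on the day control arrays, at least 11.7-fold higher and 5.53 ± 0.34 in fitted log2 (adjusted p = 4.97e-08). Every pulsed array was above every control array at both times, as held for 17.5% of all probe sets at night and 22.7% in the day. Night minus day, its responses differed by a fitted -2.59 ± 0.47 (adjusted p = 0.00328). Its night control mean of 23.0 lay near the lowest signal kept, however, and its day control mean of 3.82 was far under it. With dim signals raised the difference was -0.52 (adjusted p = 0.362), and its size was not measured. Between the controls, night minus day, BIC1 had a fitted 2.19 (adjusted p = 0.000139). That value was 0.12 and not called with dim signals raised (adjusted p = 0.724). The pulsed levels of BIC1 had a difference of -0.40 ± 0.34 without a call (adjusted p = 0.381).

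PPK1, PPK3 and PPK4 encode protein kinases that phosphorylate active cryptochromes. At night none of the 3 was called, with log2 values of -0.13 ± 0.38 for PPK1, -0.23 ± 0.23 for PPK3 and -0.11 ± 0.27 for PPK4. In the day PPK1 rose by 1.16 ± 0.38 (adjusted p = 0.0254), while PPK3 had 0.19 ± 0.23 and PPK4 -0.29 ± 0.27 without a call. The PPK1 call depends on single arrays. Day control replicate 1, at 599, lay among the day pulse arrays at 544 to 619, whereas day control replicates 2 and 3 had 136.9 and 209.0. Without day control replicate 2 its change was 0.70 (adjusted p = 0.122), without day control replicate 3 it was 1.01 (adjusted p = 0.0937), and without the arrays of high GAPDH ratio 0.65 (adjusted p = 0.171). The call was also lost without day pulse replicate 1 (adjusted p = 0.0507) or 3 (0.0553), and with no normalization (0.117), median centring (0.12) or a fit of the day groups alone (0.0829).

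HYH was also set beside other bZIP genes. The list held 50 bZIP genes, of which 17 had a named probe set, and 14 of them passed the filter. After the night pulse HYH was the 1 that rose, 3 fell (bZIP61, bZIP53 and bZIP30) and 10 were not called, with a median of -0.24. After the day pulse HYH and bZIP60 rose, 4 fell (those 3 and bZIP29) and 8 were not called, with a median of -0.13, against -0.04 over all probe sets. Called rises made up 6.07% of all probe sets at night and 21.0% in the day. Called falls made up 6.82% at night and 21.8% in the day, and no test set the list against other genes.

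bZIP61 (AT3G58120) had 32.7, 28.8 and 24.9 on the night pulse arrays, against 217.5, 217.7 and 174.4 on the night control arrays, and fell 7.05-fold at night and at least 5.90-fold in the day. bZIP53 (AT3G62420), which pairs with other bZIP factors in the response to low energy, had 185.1, 193.7 and 198.7 on the day pulse arrays, against 843.6, 846.1 and 814.2 on the day control arrays. Its log2 change was -2.10 ± 0.16 in the day (adjusted p = 3.56e-07) and -0.65 ± 0.16 at night (adjusted p = 0.0155). The pulsed and control arrays of bZIP53 did not overlap at either time. The pulsed arrays were likewise all below the controls for 19.6% of all probe sets at night and 25.3% in the day. At night bZIP53 was no longer called after night pulse replicate 1 (adjusted p = 0.0772) or night control replicate 2 (0.0941) was left out, nor under median centring (0.0764) or without normalization (0.613).

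bZIP29 (AT4G38900) fell by 1.07 ± 0.21 in the day. bZIP30 (AT2G21230) changed by -0.54 ± 0.16 at night (adjusted p = 0.0453) and by -0.46 ± 0.16 in the day (adjusted p = 0.0358), calls that were lost under 15 and 8 of 24 alternatives, with the night call lost on removal of any 1 of the 6 night arrays. bZIP60 (AT1G42990), a factor of the unfolded protein response that is named here after its values were seen, rose by 0.78 ± 0.18 in the day (adjusted p = 0.00355) but was not called under median centring (adjusted p = 0.0694) or when arrays were not normalized (0.087).

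Known targets of HY5, and so of the factor HYH resembles, were also measured in part. The list held 23 targets, of which 5 had a named probe set, and 3 of these passed the filter. UGT78D1 and UGT78D2, which add sugars to flavonols, rose by 2.05 ± 0.23 and 2.43 ± 0.37 at night and by 2.41 ± 0.23 and 3.56 ± 0.37 in the day. Called rises made up 6.07% of all probe sets at night and 21.0% in the day. Their responses, night minus day, were not called different (adjusted p = 0.511 and 0.173). DFR and UGT75C1 did not pass the filter. Their means were 83.5 and 37.7 (night pulse), 28.3 and 7.88 (night control), 11.3 and 5.87 (day pulse), and 3.10 and 4.13 (day control). SWEET11, a sucrose exporter, had -0.31 ± 0.28 at night and -0.09 ± 0.28 in the day without a call (adjusted p = 0.567 and 0.816).

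The 3 annotated genes on either side of HYH and of AT3G44450 were looked up as well. BSH was tested, IAA31, AT3G17620, AT3G44440 and AT3G44470 had group means under 21.75 throughout, and the others had no named probe set. No neighbour overlapped HYH or AT3G44450. BSH (AT3G17590), a subunit of SWI/SNF chromatin remodelling complexes, lies 2 genes before HYH. It had 73.8, 75.8 and 73.5 on the day pulse arrays, against 162.2, 266.3 and 251.4 on the day control arrays, a fall of 3.05-fold and -1.55 ± 0.20 in log2 (adjusted p = 4.45e-05). At night its value was -0.45 ± 0.20 without a call (adjusted p = 0.189).

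Genes with the most similar course were sought among the 7330 other tested probe sets that name 1 gene, by the root mean square difference of log2 signals over the 12 arrays after each gene was centred on its own mean. The arrays share their groups, so this likeness is a description. HYH was nearest to XTH32 (AT2G36870), a xyloglucan-modifying enzyme of the cell wall, at 0.232 log2 units, against a median of 1.77 over all others. XTH32 had 613.1, 768.1 and 641.9 on the night pulse arrays, against 193.5, 162.5 and 185.1 on the night control arrays, and 609.4, 493.9 and 625.7 on the day pulse arrays, against 35.4, 41.7 and 32.3 on the day control arrays. AT3G57020, AT5G55620, AT1G65870, AT1G55210 and AT4G24700 followed at 0.325 to 0.476.

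The nearest genes to AT3G44450 were farther from it. AT5G42760 came first at 0.695 and BIC1 second at 0.699, against a median of 2.92, and COR15A and COR15B (cold-regulated proteins of the chloroplast), AT2G15020 and TBL26 followed at 0.811 to 0.922. BIC1 was in place 2 also when day control replicate 2 was left out, at 0.509, and in place 12 when dim signals were raised. Of the 6 nearest to AT3G44450, 3 remained after the first of these changes and 2 after the other, and of the 6 nearest to HYH 4 and 2 remained, XTH32 first in each case. HYH and AT3G44450 differed from each other by 1.42, which put HYH in place 32 for AT3G44450 and AT3G44450 in place 1087 for HYH. Profiles were centred but not scaled, so this measure also counts unlike sizes of change. The Pearson correlation of HYH with AT3G44450 over the 12 arrays was 0.933. It was 0.991 for HYH with XTH32 and 0.988 for AT3G44450 with BIC1. The place of AT3G44450 for HYH was 354 when day control replicate 2 was left out and 297 when dim signals were raised.

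**Figure D4:**
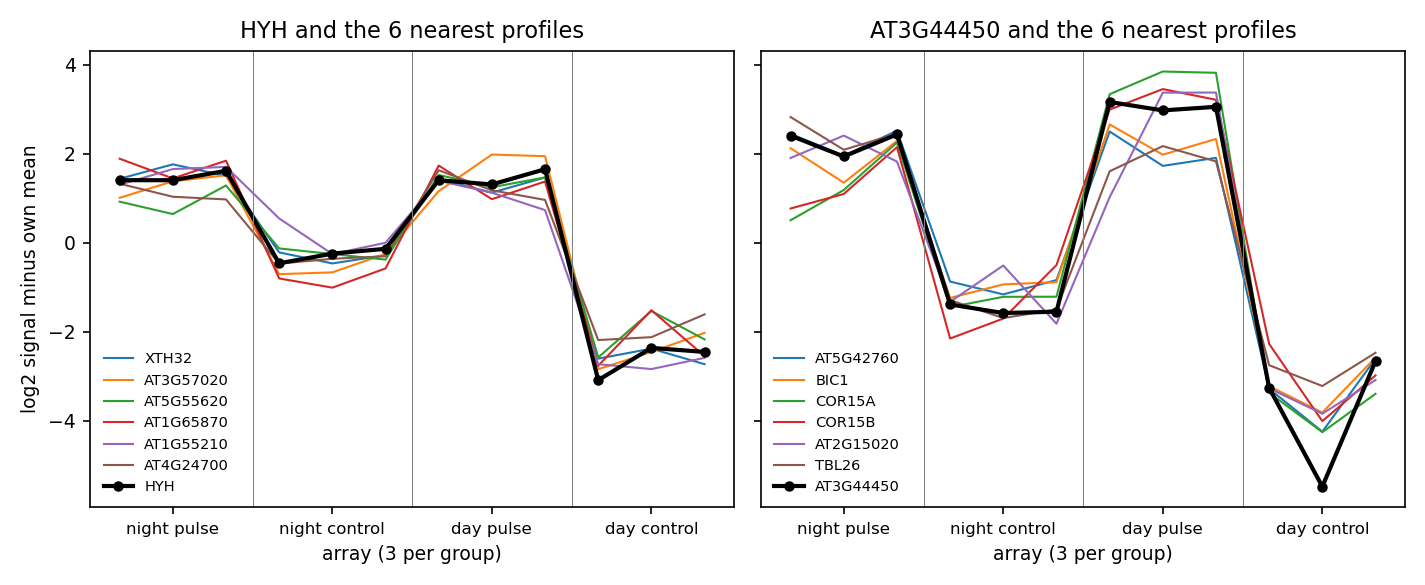
Log2 signal minus each gene's own mean on the 12 arrays, 3 per group in replicate order, for HYH (left, black) and AT3G44450 (right, black) with the 6 genes of smallest root mean square difference from each. The root mean square differences are 0.232 to 0.476 for the genes nearest to HYH and 0.695 to 0.922 for those nearest to AT3G44450, and the single low point of AT3G44450 is day control replicate 2.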

How the data were processed

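The deposited values are linear intensities, 1 for each probe set of each array, which the authors made with MAS5 per the submitters' processing notes (version and settings not given in the sources used). Of 22810 probe sets, 64 controls were left out. The annotation named 1 gene for 13513 of the rest, several for 503 and none for 8730, and 1-gene names were tied to loci through the TAIR10.1 RefSeq gene table. Intensities were raised by 2, taken to log2 and quantile normalized. Probe sets above the 40th percentile of the mean were kept, 13647 in all, 7331 of them naming 1 gene. A single limma fit (version 3.58.1, R 4.3.3) covered all 4 groups, using lmFit and then eBayes with a trend. It had 8 residual and, in the median, 13.26 total degrees of freedom, and tests were two-sided with Benjamini-Hochberg adjustment. The fit was checked on simulated data for the night pulse contrast only, and the other contrasts were not checked in this way. The number of arrays limits the precision. No 2 arrays shared over 0.87% of their values. For genes with more than 1 probe set the brightest was used.

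The members, the lists and the tests were chosen with earlier results of these data known. Named genes are HYH and AT3G44450, all tested members of the light signalling list, up to 4 called members with the smallest p of the bZIP and HY5 target lists per pulse, tested neighbours within 3 genes, and the 6 nearest profiles. The alternatives were other scalings, added constants, filters, variance models, a replicate block, and left-out arrays. Deviations from group means correlated at -0.108 to 0.446 between same-numbered arrays of different groups, above 0.1 in 8 of 18 pairs. Arrays of different numbers were not compared, so these values cannot decide whether the numbers pair the arrays. The main fit did not pair them, and the replicate block was the alternative that used the numbers. No sequence tables were used here.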

Additional observations from a re-analysis of the deposited data

Results flagged for a closer look

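The tested difference between the night and the day response, night minus day in log2, was called for HYH at -2.33, for AT3G44450 at -3.10 and for BIC1 at -2.59, each fitted value meaning a larger rise in the subjective day. For AT3G44450 and BIC1 all day control signals were below the lowest mean signal kept, and for HYH the day control mean was just below it. With dim signals raised the differences were -2.15 for HYH and -1.56 for AT3G44450, both still called. For BIC1 the difference was then -0.52 and not called (adjusted p = 0.362), so the size for BIC1 was not measured. Gaps of single arrays to the rest of their group were not tested, since each group has 3 arrays.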

How the results depend on the processing

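For HYH and AT3G44450 the direction and the call of each pulse, of the difference between pulses and of the controls held in 190 of 190 alternative values. The replicate block left every call of both genes as it was, with adjusted p = 7.76e-05 for HYH and 0.000149 for AT3G44450 at night. The level after the night pulse against the day pulse was the exception. For AT3G44450 it was called with 16 added before log2 (-0.79), with dim signals raised or only the compared groups fitted (-0.80 each) and without the arrays of high GAPDH ratio (-0.74), and ran from -0.89 to -0.65 with 1 array left out, called without day control replicate 2. For HYH it was never called, but its sign changed without the arrays of high GAPDH ratio (-0.0059) and within the range of -0.054 to 0.12 with 1 array left out. The count of calls after the night pulse, 1760, was 669 without normalization, 3513 with array weights and 1105 (without night control replicate 2) to 2295 with 1 array left out. After the day pulse it was 5833, and 3721 without normalization. For the difference it was 1728, and 439 without normalization, 2728 with median centring, 5308 with array weights and 1147 (without night control replicate 3) to 2650 (without day control replicate 1) with 1 array left out. Higher calls made up 63.8% without normalization at night, against 47.1%, and 33.9% with median centring in the day, against 49.1%. Among values that were never called, PPK1 at night was 0.025 without normalization and -0.25 to 0.0097 with 1 array left out, PPK3 in the day was -0.12 with median centring, PPK4 in the day was -0.56 to 0.074 with 1 array left out, and BIC1 between pulsed groups was 0.12 without normalization. The cause of these changes was not tested. No probe set named a member with other genes, so that alternative could not be run. The alternatives for the nearest profiles were chosen after seeing the data.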
